A study of Mus musculus with 6 samples.

Results

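Collagen chain genes were described in fibroblasts sorted from normal and dysplastic mouse ear skin. The members were all 82 probe sets of the array whose platform annotation names a single gene with a symbol made of Col, a number, a and a number, and they stand for 42 genes among 18193 genes with a probe set of their own. They were grouped as 8 fibrillar, 6 FACIT, 8 network, 5 beaded, 4 transmembrane and 7 cartilage chains, with 4 left over (Col7a1, Col15a1, Col18a1 and Col26a1). Chains of types II, IX, X and XI were placed with cartilage only. The RefSeq symbols Col6a6 and Col28a1 had no such probe set and were not analysed here.

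Cancer-associated fibroblasts (CAF) were sorted from visibly dysplastic ears of male K14-HPV16 mice, and normal dermal fibroblasts (NDF) from normal ears of male FVB/n mice without the transgene, both at 4 months of age. The K14 promoter drives the papillomavirus transgene in basal keratinocytes, and it is not a promoter of fibroblasts. Cells of 15 mice per genotype were sorted for PDGFRα, a receptor of fibroblasts and other mesenchymal cells, and each group had 3 arrays that the labels call biological repetitions. Whether each repetition was a separate pool of mice is not stated, so a p-value here reflects array-to-array spread among the 3 repetitions, which may be technical. The sort marker Pdgfra was at 12.30, 12.47 and 12.60 on the NDF arrays and at 12.66, 12.45 and 12.50 on the CAF arrays (log2 intensity). CAF replicate 3 stood apart from the other arrays, with correlations of 0.914 to 0.932 to them across all probe sets, where the other 5 arrays correlated at 0.960 or more. On the CAF arrays marker genes of keratinocytes, macrophages, neutrophils and endothelium were higher, with median differences of 1.14, 2.37, 2.93 and 1.53 log2 units over 25, 17, 11 and 22 genes. The mean level of 14 fibroblast markers was 11.03 to 11.15 in NDF and 10.58 to 11.20 in CAF, with 11 of 14 lower in CAF, and that of 10 Schwann cell markers was 7.37 to 7.43 and 7.30 to 7.88. Of the 3 control transcripts with probe sets at both ends, the log2 difference between the 3′ and 5′ ends overlapped between the groups for Gapdh and beta-actin. For the transferrin receptor it was 5.68, 4.33 and 5.53 in NDF and 4.01, 3.85 and 3.91 in CAF, without overlap, and the part of this in the collagen differences was not tested. In sorted bulk samples fewer cells of a type and less RNA per cell cannot be told apart.

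Collagens are proteins whose chains wind into a helix built from repeats that begin with glycine. Fibrillar collagens form the cables of the dermis, FACIT collagens sit on their surface, type IV collagens form the sheet of basement membranes, and type VI collagens form beaded filaments around cells. Transmembrane collagens are held in the cell surface, and the collagens of types II, IX and XI make the fibrils of cartilage, which the mouse ear also contains. Dermal fibroblasts are the main source of fibrillar collagen in skin.

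Upstream sequence is shown for 5 chains that were lower on every CAF array than on any NDF array, as examples from the fibrillar, network and cartilage groups. The RefSeq promoter table (GRCm38.p6) matched 33 of the 42 genes, with 36 start sites. The 150 bases before a start were searched on both strands for the CCAAT box (CCAAT), the TATA box (TATAAA), the GC box (GGGCGG) and the core bound by SOX factors (ACAAAG or ACAATG), and matches are in capitals below, 5′ to 3′ on the strand of the gene. No matches overlapped in the printed sequences.
Col1a2, chr6:4505468-4505617, plus strand: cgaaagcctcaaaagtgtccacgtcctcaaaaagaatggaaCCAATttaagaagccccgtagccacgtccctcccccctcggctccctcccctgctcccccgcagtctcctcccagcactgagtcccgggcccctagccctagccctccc
Col5a1, chr2:27886275-27886424, plus strand: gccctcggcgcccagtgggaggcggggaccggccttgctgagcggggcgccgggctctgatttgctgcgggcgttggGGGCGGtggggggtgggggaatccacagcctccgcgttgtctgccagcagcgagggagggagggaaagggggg
Col8a1, chr16:57754738-57754887, minus strand: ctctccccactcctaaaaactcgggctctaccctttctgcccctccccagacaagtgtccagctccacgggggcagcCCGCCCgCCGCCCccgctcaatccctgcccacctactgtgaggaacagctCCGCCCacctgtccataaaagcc
Col11a1, chr3:114030390-114030539, plus strand: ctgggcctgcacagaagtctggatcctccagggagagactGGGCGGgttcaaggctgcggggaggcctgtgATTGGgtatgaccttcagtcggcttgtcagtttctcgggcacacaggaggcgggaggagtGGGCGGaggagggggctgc
Col9a1, upstream start, chr1:24177460-24177609, plus strand: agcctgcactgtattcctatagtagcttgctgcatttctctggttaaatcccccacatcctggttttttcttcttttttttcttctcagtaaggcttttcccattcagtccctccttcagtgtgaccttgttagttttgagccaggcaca
Col9a1, downstream start, chr1:24195053-24195202, plus strand: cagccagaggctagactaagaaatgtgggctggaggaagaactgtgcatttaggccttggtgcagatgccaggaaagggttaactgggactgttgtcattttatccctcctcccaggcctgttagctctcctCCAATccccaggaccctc
The CCAAT box of Col1a2 began 109 bases before the start, and that of the downstream start of Col9a1 began 18 bases before it. Over the 36 collagen starts, 18 held a GC box, where 28.6% of all 32851 starts in the table did. A CCAAT box was held by 8 (22.2%, against 24.5%) and a TATA box by 4 (11.1%, against 7.57%). None held a SOX core, which 15.5% of all starts held. These are matches of letters in 1 window and do not show binding.

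Most collagen chains were lower on the CAF arrays, and none passed the threshold. The log2 difference between CAF and NDF was below 0 for 31 of 42 chains (73.8%, against 55.5% of all genes), with a median of -0.27 beside -0.037 over all genes. At an adjusted p under 0.05 by limma 0 of 42 chains passed, where 94 of 18193 genes (0.517%) did. At an unadjusted p under 0.05, 15 chains were lower (35.7%, against 4.02% of all genes) and 2 were higher, against 4.93%. On 16 chains every CAF array lay below every NDF array (38.1%, against 8.66% of all genes), and on 3 every CAF array lay above, against 6.78%. The latter count was 2 on quantile normalisation and 1 with equal array medians. With fewer arrays to keep apart it was 5 when NDF replicate 1 was left out, and 4 when replicate 2 of either group or CAF replicate 3 was. The count of chains with every CAF array below was 17 to 21 when 1 array was left out. No share of all genes is given for these settings, so neither count can be set against one. Read array by array, the median distance of the 42 chains from their NDF means was -0.37, -0.37 and -0.35 on the CAF arrays. Among the 33 chains at or above the median probe set (4.84) the shares were 42.4% both for the unadjusted p and for groups that do not overlap, against 5.76% and 11.1% of all genes that bright. Of the 9 dimmer chains 1 was lower at an unadjusted p under 0.05.

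The count of 15 lower chains was 9 without NDF replicate 1, 8 without NDF replicate 3 and 13 without CAF replicate 3, where 5.63% of all genes were lower. The share of all genes lower was not counted without NDF replicate 1 or 3. At an adjusted p under 0.05 by limma, calls over all genes also fell there, from 94 to 11 and 5. With an intensity trend in the prior 3 chains passed at an adjusted p under 0.05 (Col1a2, Col5a2 and Col8a1), and with array quality weights 4 did (Col2a1, Col5a1, Col5a2 and Col9a1), each of them lower in CAF. The count over all genes was 155 and 438 under these settings, and 11, 8 and 5 without NDF replicate 1, 2 or 3, 40 without CAF replicate 2 and 156 (0.857%) without CAF replicate 3. The plot of all chains sets the groups side by side.

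**Figure D1:**
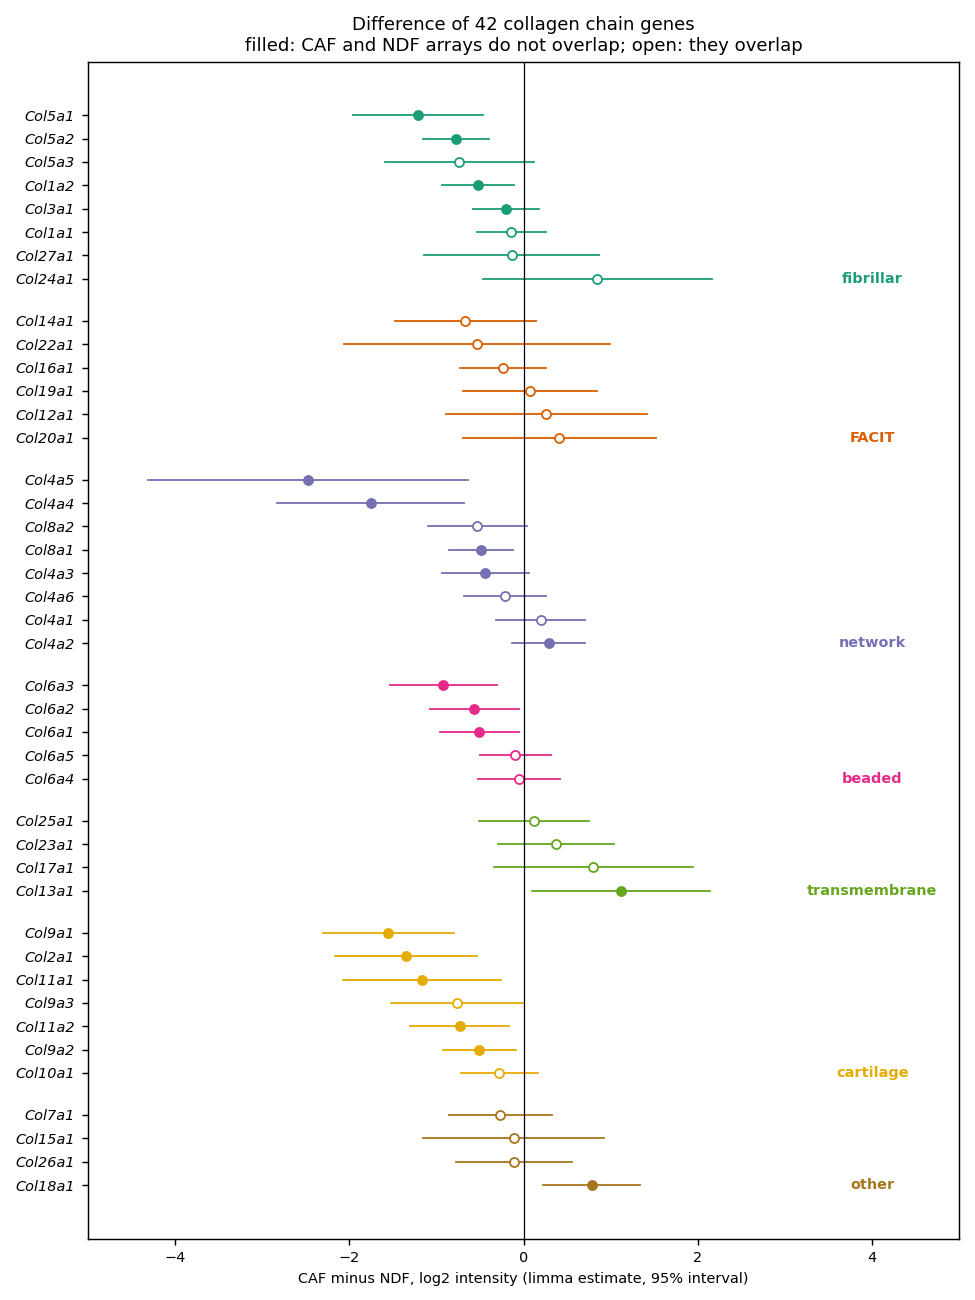
Log2 difference between CAF and NDF for each of the 42 collagen chain genes by group, with its 95% interval from limma, where filled points mark genes whose 3 CAF and 3 NDF arrays do not overlap. All 7 cartilage and all 5 beaded chains lie below 0, and all 4 transmembrane chains lie above it.

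The fibrillar chains had 7 of 8 values lower in CAF, with a median of -0.36, and 4 of 8 did not overlap between the groups with CAF lower. Over all genes 55.5% were below 0 and 8.66% did not overlap in this direction, and 0 of 8 chains passed the threshold. The minor chains of type V, which help set the width of collagen fibrils, differed by -1.21 to -0.74, and the main chains of types I and III by -0.52 to -0.14. Col5a2 was at 12.59, 12.50 and 12.54 on the NDF arrays and at 11.72, 11.81 and 11.78 on the CAF arrays. All 3 CAF arrays were therefore lower, by -0.78 ± 0.16 (SE) on the log2 scale (adjusted p = 0.128, n = 3). Its partner chain Col5a1 was at 11.90, 11.09 and 11.75 in NDF and at 10.40, 9.91 and 10.78 in CAF, with no overlap and a difference of -1.21 ± 0.31 (adjusted p = 0.235). The 3 probe sets of Col5a1 gave -0.99, -1.35 and -1.21, and the 2 of Col5a2 gave -0.78 and -0.65. Col5a3, the third chain of type V, had a wide spread in NDF, at 9.13, 7.84 and 8.08, and was at 7.45, 7.49 and 7.89 in CAF (-0.74, adjusted p = 0.639).

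Type I collagen is the bulk protein of skin, and type III accompanies it in fine fibrils. Col1a2 was at 13.71, 13.75 and 13.71 in NDF and at 13.38, 13.18 and 13.05 in CAF, a difference of -0.52 ± 0.17 without overlap (adjusted p = 0.402). Col3a1 was at 13.63, 13.71 and 13.65 in NDF and at 13.52, 13.45 and 13.40 in CAF, also without overlap, and differed by only -0.20 ± 0.16 (adjusted p = 0.825). Col1a1 was at 13.50, 13.52 and 13.46 in NDF and at 13.28, 13.27 and 13.51 in CAF, where replicate 3 reached the NDF range (-0.14, 95% interval -0.54 to 0.26). Its other probe set gave 13.72, 13.69 and 13.78 in NDF against 12.95, 12.59 and 12.75 in CAF. That probe set differed by -0.97 ± 0.18 with no overlap (adjusted p = 0.136 over 34945 probe sets), so the size of the Col1a1 difference depended on the probe set. Of the rarer fibrillar chains, Col27a1 differed by -0.14 and Col24a1 by 0.85 (adjusted p = 0.971 and 0.779), and both overlapped between the groups. The other probe set of Col27a1 went the other way, at 0.39, also with overlap.

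The probe sets of type VIII collagen, a short-chain network collagen of vessel walls and of the membrane under the corneal endothelium, held the collagen probe set that passed the threshold. That probe set of Col8a1 was at 10.12, 10.33 and 9.92 in NDF and at 8.16, 8.05 and 7.80 in CAF. It fell by 2.12 ± 0.20 log2 units (limma adjusted p = 0.0273 over 34945 probe sets, of which 0.226% passed). Another Col8a1 probe set gave 10.58, 10.71 and 10.83 against 8.66, 8.53 and 9.51, a difference of -1.81 ± 0.29 (adjusted p = 0.0871). The brightest of its probe sets gave 12.82, 12.77 and 12.77 against 12.32, 12.30 and 12.28, and differed by -0.49 ± 0.16 (adjusted p = 0.379 in the fit of genes). None of the 3 probe sets overlapped between the groups, and the estimates ran from -2.12 to -0.49. With the mean of its probe sets Col8a1 fell by 1.47 (adjusted p = 0.0152). The adjusted p of the probe set that passed was 0.134, 0.148 and 0.148 without NDF replicate 1, 2 or 3, 0.0516 without CAF replicate 1, 0.0779 without CAF replicate 2 and 0.0289 without CAF replicate 3. Its partner chain Col8a2 was at 9.89, 10.28 and 9.99 in NDF and at 9.22, 9.91 and 9.45 in CAF (-0.53, adjusted p = 0.596).

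**Figure D2:**
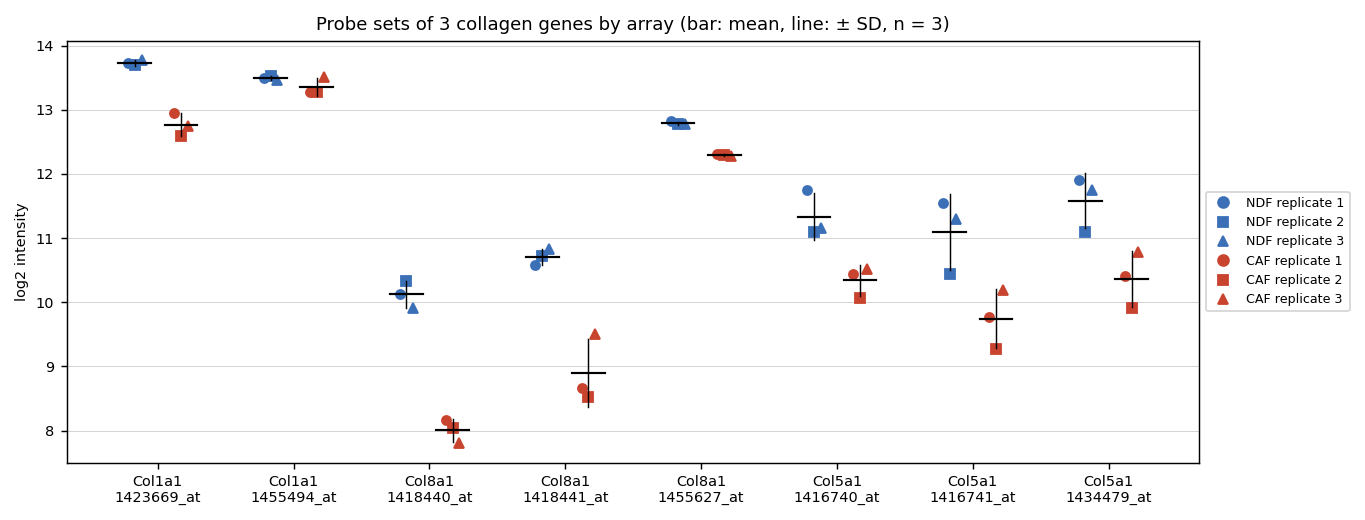
Log2 intensity of the probe sets of Col1a1, Col8a1 and Col5a1 on the 3 NDF arrays (blue) and the 3 CAF arrays (red), with bars for the mean and lines for the SD. The 3 probe sets of Col8a1 differ by -2.12, -1.81 and -0.49, whereas those of Col5a1 lie between -1.35 and -0.99.

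Of the 27 chains with several probe sets, 18 had all of them on 1 side of 0, 14 lower and 4 higher. Counting only probe sets at or above the median, 16 of 19 such chains did, 13 lower and 3 higher. Over the 82 collagen probe sets, 26 were lower at an unadjusted p under 0.05 (31.7%, against 3.69% of all probe sets) and 30 did not overlap with CAF lower (36.6%, against 7.98%).

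The chains of type IV collagen, the sheet-forming collagen of basement membranes, parted into 2 sets. The ubiquitous chains Col4a1 and Col4a2 had means slightly above NDF in CAF, while Col4a4 and Col4a5 had the lowest differences of all 42 chains. The specialised network known from kidney, cochlea and eye holds Col4a4 and Col4a5 together with Col4a3, whose mean was below the median probe set here. Col4a2 was at 10.62, 10.41 and 10.77 in NDF and at 10.82, 10.96 and 10.88 in CAF, without overlap, and differed by 0.29 ± 0.18 (adjusted p = 0.756). Col4a1 was at 10.58, 10.29 and 10.55 against 10.69, 10.95 and 10.36, where CAF replicate 3 lay within the NDF values (0.20, adjusted p = 0.89). Their differences stayed above 0 under each rescaling tried, between 0.17 and 0.38 over both chains.

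Col4a4 was at 8.76, 9.06 and 9.56 in NDF and at 8.19, 7.48 and 6.46 in CAF, a difference of -1.75 ± 0.45 (adjusted p = 0.235). Col4a5 was at 8.11, 7.98 and 8.27 in NDF and at 7.13, 6.03 and 3.79 in CAF, a difference of -2.47 ± 0.77 (adjusted p = 0.362). All CAF arrays were below all NDF arrays for both chains, and CAF replicate 3 was the lowest array for both. Without it the differences were -1.29 for Col4a4 and -1.54 for Col4a5, still without overlap, and that of Col9a1 was then lower than either. A second probe set of Col4a4 gave -0.87 and the dimmest gave 0.37, while the other probe set of Col4a5 gave -0.74. Within each array the log2 ratio of Col4a4 to Col4a2 was -1.86, -1.35 and -1.22 in NDF and -2.64, -3.48 and -4.42 in CAF, a difference of -2.04 between the group means with no overlap, given as a description with no test. Col4a3 was at 4.59, 5.06 and 4.75 against 4.56, 4.15 and 4.37 (-0.44), and Col4a6 differed by -0.21, both near or below the median probe set.

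**Figure D3:**
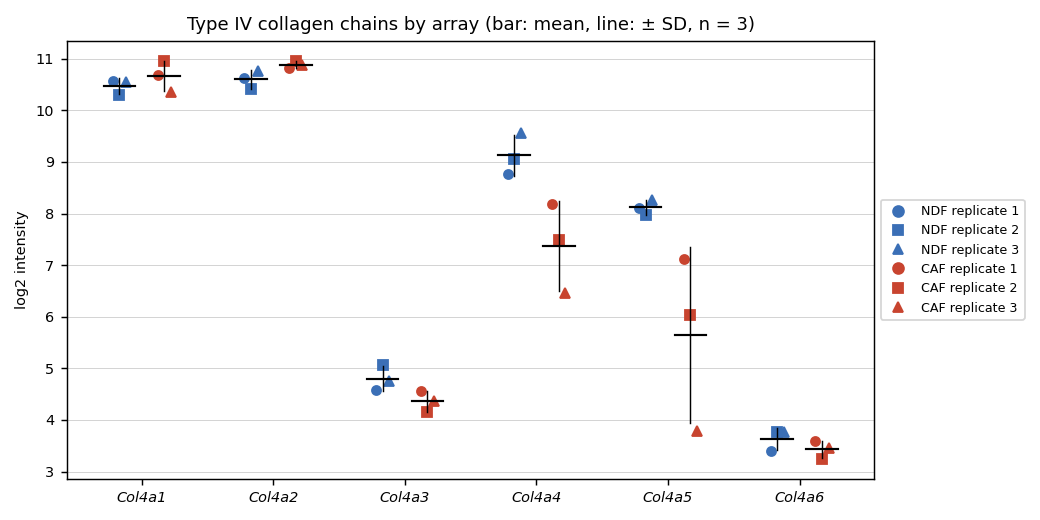
Log2 intensity of the 6 type IV collagen chains on the 3 NDF arrays (blue) and the 3 CAF arrays (red), with bars for the mean and lines for the SD. Col4a4 and Col4a5 are lower on all CAF arrays, lowest on replicate 3, whereas Col4a2 is higher on all of them.

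Endothelial cells, mural cells and keratinocytes also make basement membrane collagen. On the same arrays the mean log2 level of 22 endothelial markers was 5.47 to 5.75 in NDF and 6.64 to 7.56 in CAF, and 20 of 22 were higher. Of the defining markers, Pecam1 was at 4.30, 3.89 and 4.75 against 5.76, 6.82 and 4.96, while Cdh5 differed by 0.053. For 13 mural cell markers the mean was 6.68 to 7.02 and 7.18 to 7.27, with 7 of 13 higher and no defining marker below the 25th percentile of probe sets in NDF. Their median difference was only 0.013. Of the defining ones Rgs5 and Myh11 differed by 1.58 and 0.51, and Cspg4, Kcnj8 and Abcc9 by -0.27, -0.36 and -0.32. The part of these cell types in the values of Col4a1 and Col4a2 was not tested.

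Type VI collagen, which links cells to the surrounding matrix, was lower for each of its main chains. Col6a3 was at 12.28, 11.60 and 12.04 in NDF and at 11.29, 11.17 and 10.71 in CAF, a difference of -0.92 ± 0.26 (adjusted p = 0.291). Col6a1 was at 12.89, 12.63 and 12.59 against 12.26, 12.34 and 11.99 (-0.51 ± 0.19, adjusted p = 0.485). Col6a2 was at 12.20, 11.61 and 11.67 against 11.33, 11.20 and 11.25 (-0.56 ± 0.21, adjusted p = 0.502), and its other probe set gave -0.77. All 3 main chains were without overlap between the groups, and none passed the threshold. The within-array log2 ratios of Col6a3 and of Col6a2 to Col6a1 overlapped between the groups, and that of Col6a2 was at a mean of -0.88 ± 0.17 (SD) in NDF and -0.94 ± 0.20 in CAF. The other beaded chains Col6a4 and Col6a5 stood near the floor of the array, at 3.34 to 3.82, and differed by -0.051 and -0.096.

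The chains of cartilage collagen were lower as a group, with 7 of 7 below 0, a median of -0.76 and 5 of 7 without overlap, where 55.5% of all genes were below 0 and 8.66% did not overlap with CAF lower. At an adjusted p under 0.05 by limma 0 of 7 passed, and 6 were lower at an unadjusted p under 0.05 (85.7%, against 4.02% of all genes). Col9a1, a chain of the collagen that coats cartilage fibrils, was at 12.04, 11.92 and 12.33 in NDF and at 9.88, 10.82 and 10.94 in CAF. The difference was -1.55 ± 0.32 (adjusted p = 0.128), and a second Col9a1 probe set gave -1.56. Col2a1, the main fibrillar collagen of cartilage, was at 10.61, 9.86 and 10.39 against 8.29, 9.36 and 9.17 (-1.35 ± 0.34, adjusted p = 0.229). CAF replicate 1 was the lowest array for both. Col11a1, which starts cartilage fibrils and is also made by activated fibroblasts, was at 10.02, 9.66 and 9.83 against 8.97, 9.25 and 7.80 (-1.16 ± 0.38, adjusted p = 0.397). Its other probe set gave -1.50, and here CAF replicate 3 was lowest.

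Among the remaining cartilage chains, Col11a2 was at 4.93, 4.98 and 5.46 against 4.25, 4.20 and 4.73 (-0.73 ± 0.24, adjusted p = 0.396), and Col9a2 differed by -0.51 with no overlap (adjusted p = 0.429). Col9a3 was at 9.06, 8.63 and 9.08 against 7.77, 8.82 and 7.90 (-0.76, adjusted p = 0.554). The chain of hypertrophic cartilage, Col10a1, was near the floor in both groups, at 3.15 to 3.74, and differed by -0.28.

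Chondrocyte markers were present on all arrays, and 14 of 18 were lower in CAF. Their mean log2 level was 8.78 to 8.93 in NDF and 8.27 to 8.67 in CAF, with a median difference of -0.32, and 0 of 18 passed the threshold. At an unadjusted p under 0.05, 3 were lower (16.7%, against 4.02% of all genes) and 1 was higher, against 4.93%. The proteoglycan gene Acan was at 12.69, 12.17 and 12.90 against 11.49, 12.42 and 12.72, and the cartilage regulator Sox9 at 11.38, 11.57 and 11.71 against 10.80, 11.46 and 11.65, so both overlapped between the groups and were lowest on CAF replicate 1. Cnmd, the gene of the cartilage protein chondromodulin, was at 10.57, 10.32 and 10.67 against 8.71, 9.01 and 7.85 without overlap. Its difference of -2.00 (adjusted p = 0.0633) was larger than that of any cartilage collagen chain. Matn3 and Hapln1 differed by -1.08 and -0.72 with no overlap, and of the defining markers only Matn1 stood below the 25th percentile of probe sets in both groups. Relative to Acan within each array, Col9a1 was at -0.65, -0.25 and -0.57 in NDF and at -1.62, -1.61 and -1.78 in CAF. The ratio of Col9a1 to Acan was thus lower on each CAF array, by -1.18 between the means. Such a ratio depends on the marker chosen, since Acan differed by -0.38, Matn3 by -1.08 and Cnmd by -2.00. The part of chondrocyte content in the values of the cartilage chains was not tested. Outside the cartilage group 24 of 35 collagen chains were below 0, with a median of -0.20, and 11 of 35 did not overlap with CAF lower (31.4%, against 8.66% of all genes).

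**Figure D4:**
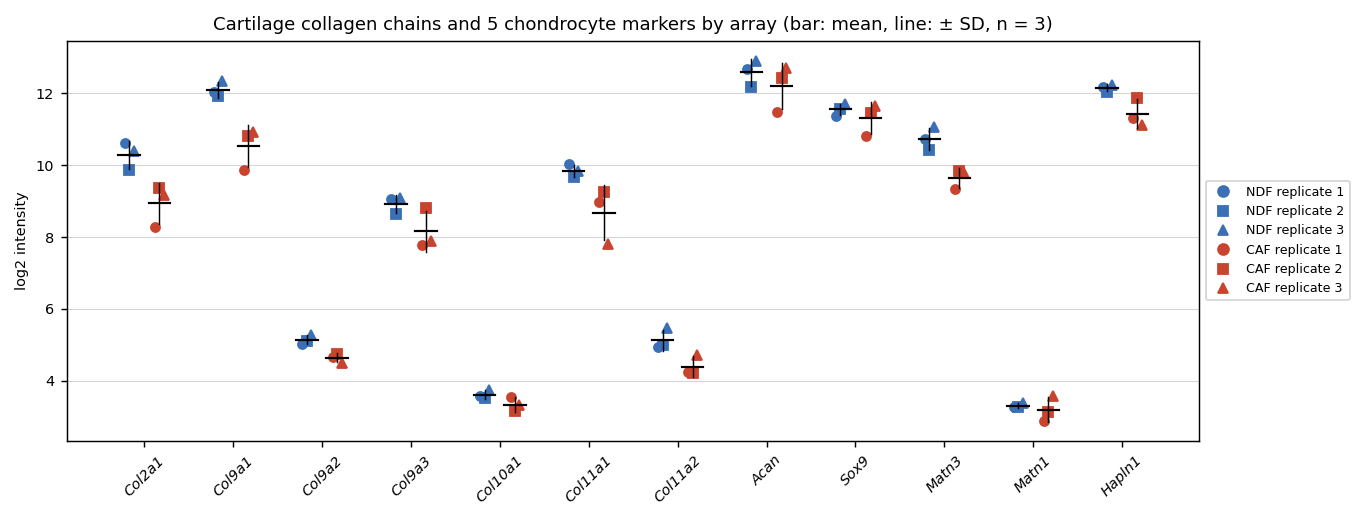
Log2 intensity of 7 cartilage collagen chains and 5 chondrocyte markers on the 3 NDF arrays (blue) and the 3 CAF arrays (red), with bars for the mean and lines for the SD. The chains Col2a1, Col9a1, Col9a2, Col11a1 and Col11a2 and the markers Matn3 and Hapln1 are lower on all CAF arrays. Col9a3, Col10a1, Acan, Sox9 and Matn1 overlap between the groups.

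By the brightest probe set of each gene, the transmembrane chains were the one group with every value above 0, at a median of 0.59. None of the 4 passed the threshold by limma, and only Col13a1 was higher at an unadjusted p under 0.05, where 4.93% of all genes were. Col13a1, a chain of cell adhesion sites, was at 6.82, 6.88 and 6.89 in NDF and at 7.02, 8.10 and 8.81 in CAF. The NDF arrays lay close together and the CAF arrays were widely spread, around a difference of 1.11 ± 0.43 (adjusted p = 0.506), which was 0.70 without CAF replicate 3. Col17a1, the hemidesmosome collagen of basal keratinocytes, was at 4.55, 4.72 and 4.71 against 5.88, 4.29 and 6.21 (0.80, adjusted p = 0.743). It was high on CAF replicates 1 and 3 and not on replicate 2, and the basal keratin Krt14 on the same arrays was at 12.10, 10.67 and 11.97, against 9.39 ± 0.40 (SD, n = 3) in NDF. For all 25 keratinocyte markers the mean log2 level was 7.38 to 7.49 in NDF and 9.39, 8.37 and 9.33 on the CAF arrays, with 22 of 25 higher. Their part in Col17a1 was not tested. Col23a1 was at 6.77, 7.44 and 6.44 against 7.21, 7.16 and 7.40 (0.37, adjusted p = 0.813), and Col25a1 at 8.20, 8.48 and 8.28 against 8.05, 8.96 and 8.31 (0.12, adjusted p = 0.957), both with overlap. The difference of Col25a1 was -0.14 without CAF replicate 2, and its other probe set gave -0.10 on all arrays.

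The chains left outside these groups behaved differently from one another. Col18a1, the basement membrane proteoglycan whose end fragment is endostatin, was at 7.91, 7.21 and 7.54 in NDF and at 8.34, 8.52 and 8.15 in CAF, higher on every CAF array by 0.78 ± 0.24 (adjusted p = 0.339). Its other probe set gave 0.68, also without overlap. Vessels and epithelia make it as well, and the endothelial and keratinocyte levels given above apply to the same arrays, and their part was not tested. Its relative Col15a1 was at 9.19, 8.70 and 8.85 against 7.98, 8.68 and 9.74, a wide spread in CAF around a difference of -0.11. Col7a1, the anchoring fibril collagen that ties epidermis to dermis, was at 6.52, 5.91 and 5.76 against 5.97, 5.64 and 5.78 (-0.27, adjusted p = 0.862), and Col26a1 at 4.19, 4.27 and 3.76 against 4.36, 3.47 and 4.06 (-0.11).

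The FACIT chains of fibril surfaces showed no common direction, with 3 of 6 lower, a median of -0.082 and 0 of 6 without overlap. Over all genes 55.5% were lower, and 8.66% and 6.78% did not overlap with CAF lower and higher. With so few chains these counts cannot be told from those shares. Col19a1 and Col22a1 stood below the median probe set, and of the other 4 chains 2 were lower, with a median of 0.011. Col14a1, which coats dermal fibrils, was at 10.59, 10.45 and 10.85 in NDF and at 10.72, 9.60 and 9.58 in CAF (-0.67 ± 0.34, adjusted p = 0.665), so CAF replicate 1 stayed within the NDF range. Its 3 probe sets ran from -1.20 to -0.47. Col12a1, its partner on fibrils, was at 10.62, 8.96 and 9.31 against 9.51, 9.64 and 10.53 (0.26, adjusted p = 0.946). Col16a1 was at 8.68, 8.57 and 8.15 against 8.07, 8.33 and 8.29 (-0.24, adjusted p = 0.85). Col20a1 was high on CAF replicate 3 alone, at 6.39, and its difference of 0.41 was -0.15 without that array. Col22a1 was highest on NDF replicate 2, at 6.06, where the other arrays were at 3.40 to 4.38. Col19a1 was at 3.21 to 3.75 on 5 arrays and at 4.43 on CAF replicate 3.

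Genes of collagen synthesis, most of them enzymes and chaperones that modify and fold the chains, mostly had lower values as well. The list also holds other genes of this path, namely Sec23a, Sec24d, Mia2, Mia3, Sparc, Tmem38b and Creb3l1. Of 24 measured genes of this list 21 had lower values in CAF, 14 without overlap (58.3%, against 8.66% of all genes), with a median of -0.34. At an adjusted p under 0.05 by limma 0 of 24 passed. At an unadjusted p under 0.05, 9 were lower in CAF (37.5%, against 4.02% of all genes) and 0 were higher. The lysyl hydroxylase gene Plod1 was at 8.77, 8.52 and 8.62 in NDF and at 8.13, 7.61 and 7.54 in CAF (-0.88 ± 0.22, adjusted p = 0.216). The prolyl isomerase gene Fkbp14 was at 10.13, 9.72 and 10.35 against 9.52, 8.81 and 8.50 (-1.12 ± 0.31, adjusted p = 0.285). Serpinh1, which encodes the collagen chaperone HSP47, was at 11.09, 10.92 and 10.77 against 10.40, 10.11 and 10.38 (-0.63 ± 0.19, adjusted p = 0.322). Each of the 3 was without overlap.

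Genes that act on collagen outside the cell were more mixed. Of 9 genes of procollagen processing 0 passed the threshold and 0 were past an unadjusted p of 0.05, with a median of -0.058. At an unadjusted p under 0.05, 2 of 5 crosslinking genes were lower (40%, against 4.02% of all genes) and 1 was higher (against 4.93%). Lox, the lysyl oxidase, was at 12.64, 12.16 and 12.45 against 11.96, 11.82 and 11.82 (-0.55, adjusted p = 0.442), Loxl4 differed by -0.61 and the transglutaminase Tgm2 by 0.69. Of 16 genes of collagen breakdown and its inhibitors 1 passed the threshold and rose, where 0.517% of all genes passed. An unadjusted p under 0.05 was found for 4, all of them with CAF higher, against 4.93% of all genes. The median was -0.080. The gene that rose was stromelysin Mmp3, at 10.31, 10.66 and 10.74 in NDF and 12.57, 12.55 and 12.20 in CAF (1.87 ± 0.21, adjusted p = 0.0245). The gelatinase Mmp9 differed by 2.93 (adjusted p = 0.0505) and the collagenase Mmp13 by 3.65 (adjusted p = 0.128). Neutrophils also make Mmp9, and their 11 markers, Mmp9 itself among them, had a mean level of 4.63 to 5.35 in NDF and 7.30 to 8.27 in CAF, with 9 of 11 higher. Their part in these values was not tested.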

How the data were processed

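Per the labels' protocols, RNA of PDGFRα-positive cells sorted by flow cytometry went through a single WT-Ovation amplification before hybridisation to Affymetrix mouse arrays. GCOS and RMA are named, without versions, by the submitters' processing notes. The deposited values are log2 intensities from 2.20 to 14.60, with array medians of 4.73 to 4.87. RMA compresses dim genes towards a floor, probe sets near the top of the scale may be compressed too, and array totals are lost. Depth does not apply to arrays, and their number limits the precision.

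Probe sets were named through the platform annotation. Of 45037 probe sets other than controls, 34945 name 1 gene, 932 several and 9160 none, and 34741 matched RefSeq by gene identifier with 0 symbols updated. Each gene was represented by the probe set whose mean across the 6 arrays was highest. The CAF minus NDF contrast was fitted by limma 3.58.1 in R 4.3.3 (lmFit, then eBayes, two-sided) over all 18193 genes, and again over all 34945 single-gene probe sets, with Benjamini-Hochberg adjustment and a threshold of 0.05, after a test on simulated data. SE values are moderated. No detection calls were used. Figures were drawn with matplotlib 3.10.9.

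The members, gene lists, alternatives and tests were chosen with earlier results of these data known. Every chain may be named. By rule, the text gives all arrays for the brightest chain and up to 3 chains with the smallest p in each group, and up to 3 genes per pathway list. Col1a1, Col4a1, Col4a2, Col5a3, Col8a2, Col9a3, Col11a1, Col12a1 and Col4a3 were added after their values were seen, as were the within-array ratios. The chondrocyte marker Cnmd, not among the defining ones, was added in the same way. The alternatives were other normalisations, filters, probe set rules, priors, array weights, a replicate block and leaving out arrays.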

Additional observations from a re-analysis of the deposited data

How the results depend on the processing

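The median difference of the collagen chains was below 0 under every alternative. It was -0.30 with equal array medians, -0.49 and -0.44 with filters at the median and the 25th percentile, -0.33 without NDF replicate 1 and CAF replicate 3, and between -0.41 and -0.27 when 1 array was left out. The count of collagen genes that passed was 1 with the mean of all probe sets (Col8a1) and with every probe set on its own, 3 with an intensity trend, 4 with array weights and 0 under the other alternatives. The count over all genes was 20 with the replicate block, 155 with an intensity trend, 438 with array weights, 198 at an adjusted p under 0.1 and 5 to 156 when 1 array was left out. Collagen genes lower at an unadjusted p under 0.05 numbered 8 to 15 when 1 array was left out, and 10 with the replicate block. Higher ones numbered 1 on quantile normalisation, with equal array medians and without NDF replicate 1 and CAF replicate 3, and 1 to 2 when 1 array was left out. Among these settings a share of all genes is given only without CAF replicate 3, for lower values (5.63%). Of the 82 collagen probe sets 0 passed with the replicate block, 5 with an intensity trend, 7 with array weights, 2 at an adjusted p under 0.1 and 0 to 2 when 1 array was left out. Over all 34945 probe sets, 10, 158, 467, 204 and 7 to 107 passed under the same settings, against 79 in the main fit. The labels do not say whether arrays of the same replicate number were handled together. Their deviations from the group means correlated at -0.15, 0.11 and -0.01, which with 3 arrays per group cannot decide it. The block is therefore given only here.

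Of 42 chains 32 kept their direction under each alternative that gave them a value (740 values over 18 alternatives, since the filters and the suffix rule left some chains out). With the mean of all probe sets the difference was -0.055 for Col19a1, 0.094 for Col26a1, 0.13 for Col27a1, 0.038 for Col4a6 and 0.049 for Col6a4, and without cross-matching suffixes it was 0.30 for Col26a1. With array weights it was -0.29 for Col19a1, -0.044 for Col25a1 and 0.14 for Col26a1. Without NDF replicate 1 and CAF replicate 3 it was -0.30 for Col19a1, -0.18 for Col20a1 and 0.30 for Col27a1. When arrays were left out, differences ran from -0.072 to 0.76 for Col12a1, -0.58 to 0.30 for Col15a1, -0.30 to 0.33 for Col19a1, -0.18 to 0.78 for Col20a1, -1.11 to 0.22 for Col22a1, -0.14 to 0.31 for Col25a1, -0.31 to 0.13 for Col26a1, -0.62 to 0.30 for Col27a1 and -0.23 to 0.052 for Col6a4. The cause was not tested. Signal over background could not be set, since no detection calls were used.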

Other observations

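Proteins that bind collagen fibrils or anchor cells to them were read as lists too. Of 21 fibril partners 17 had lower values in CAF, with a median of -0.28, and 5 did not overlap with CAF lower (23.8%, against 8.66% of all genes). None of the 21 passed the threshold by limma, and 3 were lower at an unadjusted p under 0.05 (14.3%, against 4.02% of all genes). The matrilin gene Matn2 was at 11.20, 11.19 and 11.34 in NDF and at 10.51, 10.21 and 10.30 in CAF (-0.90, adjusted p = 0.114). Keratocan (Kera), a small proteoglycan of collagen fibrils, was at 10.99, 11.85 and 11.78 against 10.21, 10.21 and 9.25 (-1.65, adjusted p = 0.154).

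Of 11 genes listed as collagen receptors 0 passed the threshold. At an unadjusted p under 0.05, 2 were higher in CAF, against 4.93% of all genes, and 1 was lower (9.09%, against 4.02%). The collagen-binding integrin chain Itga1 was at 9.89, 10.15 and 10.39 in NDF and at 10.99, 11.51 and 11.56 in CAF (1.21 ± 0.24, adjusted p = 0.118). Mrc2, the endocytic receptor that takes up collagen fragments, was at 9.47, 9.36 and 9.49 against 8.62, 9.11 and 8.19 (-0.79, adjusted p = 0.393). Cd93, the other of the 2 higher genes of this list, is an endothelial and myeloid gene and differed by 1.75 (adjusted p = 0.305).

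The log2 difference between the 3′ and 5′ probe sets was 0.983 to 1.496 in NDF and 1.192 to 1.417 in CAF for Gapdh, and 1.389 to 1.677 and 1.297 to 1.719 for beta-actin.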
